A study of Mus musculus with 120 samples.

Results

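Epithelial keratins were followed in a bank of mouse embryonic stem (ES) cell clones, through 6 genes of simple and appendage epithelia: Krt7, Krt8, Krt17, Krt18, Krt19 and Krt79. The 6 genes were chosen from their induced minus uninduced differences in these same arrays, so those differences are given as a description, with no test. They are 6 of the 18194 genes with a probeset of their own on the larger Affymetrix mouse array used (12394 on the smaller), and 9 probesets belong to them alone on either array. Krt8 has 3 of these probesets, Krt17 has 2 and the other genes have 1 each.

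The study overexpressed single genes of human chromosome 21, or their mouse counterparts, in EB3, a mouse ES cell line derived from E14. Each clone carries 1 coding sequence, with a YFP reporter, at the ROSA26 locus (of human origin for Dyrk1a, Snf1lk and Zfp295), where it is transcribed once tetracycline is withdrawn. For each gene, 3 clones were profiled without tetracycline (induced) and with it (uninduced, 0 h), and all cells were grown with LIF, the cytokine that holds ES cells undifferentiated. By their labels, the induced clones had been without tetracycline for 24 h in 15 experiments (Bach1, Dscr1, Dyrk1a, Erg, Ets2, Gabpa, Nrip1, Olig1, Olig2, Pfkl, Pknox1, RIKEN-1810007M14, Runx1, Snf1lk and Zfp295), for 39 h in 3 (Hunk, Ripk4 and Sim2) and for 48 h in 2 (Aire and Pdxk). Each experiment therefore has 3 induced and 3 uninduced arrays, 120 arrays over the 20 experiments. Runx1 was profiled on the smaller array (22690 probesets) and the other 19 genes on the larger one (45101). The uninduced clones carry the same transgene as the induced ones, and a clone is a selected subline of EB3. By the paper's q-PCR, only Pdxk was expressed significantly, though mildly, above EB3 while tetracycline was present. The paper describes washing, trypsinizing and re-plating for the cells to be induced, and no clone without a transgene was profiled on arrays. Effects of this handling and of the transgene therefore cannot be told apart. All values are log2 intensities normalized within an experiment, so levels are compared within an experiment only.

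Keratins are the intermediate filament proteins of epithelia, and each filament is built from pairs of a type I and a type II chain. Krt8 (type II) and Krt18 (type I) form the first keratin pair of the mouse embryo and the ground pair of simple epithelia, and Krt7 (type II) and Krt19 (type I) join them in ducts and in the trophoblast. Krt17 (type I) belongs to skin appendages and wounded epidermis, and Krt79 (type II) to the infundibulum of the mouse hair follicle and the ducts of sebaceous glands. In ES cells held undifferentiated these genes are read mainly as signs of cells leaving that state.

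RefSeq promoters (GRCm38.p6, 250 bases before to 50 bases after the start of the gene) were at hand for 4 of the 6 genes, all on chromosome 15. Those of the 3 genes that later carry the contrast between the Runx1 and Erg experiments are shown, in lower case and 5′ to 3′ in the direction of the gene. Runx1 is known to bind the RUNX core TGTGGT and Erg the ETS core GGAA, and both were searched on both strands. The Krt79 promoter lies at chr15:101940275-101940574 on the minus strand, with its RUNX core in capitals. The Krt8 promoter (chr15:102004293-102004592, minus strand) and the Krt18 promoter (chr15:102027966-102028265, plus strand) have their ETS cores in capitals, GGAA or its complement TTCC.
Krt79: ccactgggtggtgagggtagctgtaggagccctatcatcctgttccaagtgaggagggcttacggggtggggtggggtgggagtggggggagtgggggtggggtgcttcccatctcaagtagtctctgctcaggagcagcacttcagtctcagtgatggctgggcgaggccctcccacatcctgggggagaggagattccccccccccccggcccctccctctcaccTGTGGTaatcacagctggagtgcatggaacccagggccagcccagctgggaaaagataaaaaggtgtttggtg
Krt8: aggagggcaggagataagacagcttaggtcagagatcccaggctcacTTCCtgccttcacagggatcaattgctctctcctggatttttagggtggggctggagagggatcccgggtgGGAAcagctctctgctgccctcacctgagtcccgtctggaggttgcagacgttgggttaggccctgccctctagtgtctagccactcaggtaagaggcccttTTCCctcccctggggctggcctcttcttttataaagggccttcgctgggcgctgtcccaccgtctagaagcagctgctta
Krt18: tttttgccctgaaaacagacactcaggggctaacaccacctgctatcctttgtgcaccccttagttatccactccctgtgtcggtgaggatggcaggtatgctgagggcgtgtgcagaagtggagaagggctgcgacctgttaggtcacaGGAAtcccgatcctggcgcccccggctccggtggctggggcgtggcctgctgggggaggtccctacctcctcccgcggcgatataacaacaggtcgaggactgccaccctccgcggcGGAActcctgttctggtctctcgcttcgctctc
The Krt79 window held 1 RUNX core, starting at its base 228, before the start of the gene, and 5 ETS cores. The windows of Krt7, Krt8 and Krt18 held no TGTGGT and 3, 3 and 2 ETS cores, and no match of one motif overlapped a match of the other. TGTGGT occurs in 16.8% of the 32851 promoters of the same length, and GGAA in 96%. A match is a description of the letters and not a binding site.

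All 12 markers of pluripotent ES cells lay above the lower quartile of the probesets in both the Runx1 and the Erg experiment. Of 47 probesets for the overexpressed genes themselves, 2 passed the limma test below, both in the Runx1 experiment, and those of Erg differed by 0.03 to 0.04. Without a call, all 3 Pknox1 probesets were lower by 1.21 to 1.47 in the Pknox1 experiment, those of Nrip1 were lower by up to 0.59 in its own, and 1 Rcan1 probeset was higher by 2.14 in the Dscr1 experiment. The transgenes hold a coding sequence alone, so a probeset outside it reads the cell's own transcript and checks nothing. One clone stood apart in both states. The Ets2 clone of replicate 1 correlated at 0.982 to 0.985 with the other arrays of its state and at 0.995 with its own pair, and 10 of 12 primitive endoderm markers were over 1 log2 unit higher in its uninduced array than in the mean of the other clones' (Col4a1 by 4.60, Dab2 by 4.58, Sox17 by 3.83). Its keratins are given below, with the uninduced clones.

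The widest differences of the 6 genes were found in the Runx1 experiment, in which Runx1, a transcription factor of blood formation, was induced for 24 h. Krt79 stood at 11.31, 11.21 and 11.69 in the induced clones and at 5.93, 6.02 and 5.85 in the uninduced clones. The 2 groups did not overlap, the difference was 5.47 (SE 0.13) or 44.3-fold, and it ranked first among all 22690 probesets. Krt18, the type I chain of simple epithelia, had 10.05, 9.56 and 10.68 in induced clones, against 7.94, 8.02 and 8.23 in uninduced clones. All 3 induced clones lay above every uninduced clone, with a difference of 2.03 (SE 0.17), rank 37. For Krt7, the levels were 7.41, 6.96 and 7.76 in induced clones and 5.79, 5.58 and 5.80 in uninduced clones, a difference of 1.65 (SE 0.12), rank 77, again with no overlap.

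Krt8, the partner of Krt18, was higher by less and varied more. Its brightest probeset had 8.93, 8.23 and 9.82 in induced clones and 7.83, 7.88 and 8.11 in uninduced clones. The groups did not overlap and differed by 1.05 (SE 0.24), the other 2 probesets by 1.14 and 0.96, and replicate 2 had the smallest difference of the 3 for Krt7, Krt8 and Krt18 alike. These 3 probesets of Krt8 may share target sequence and are not separate evidence. Krt19 overlapped between the states, at 6.60, 6.09 and 6.94 in induced clones and 6.18, 6.13 and 6.39 in uninduced clones (difference 0.31). Krt17 went the other way. Its levels were 5.50, 5.52 and 5.48 in induced clones, against 7.30, 7.60 and 7.45 in uninduced clones, lower by 1.95 (SE 0.08) and rank 26 from the lowest of all probesets. The other Krt17 probeset lay under the lower quartile of the array in all 20 experiments, where its differences ran between -0.17 and 0.36.

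**Figure D1:**
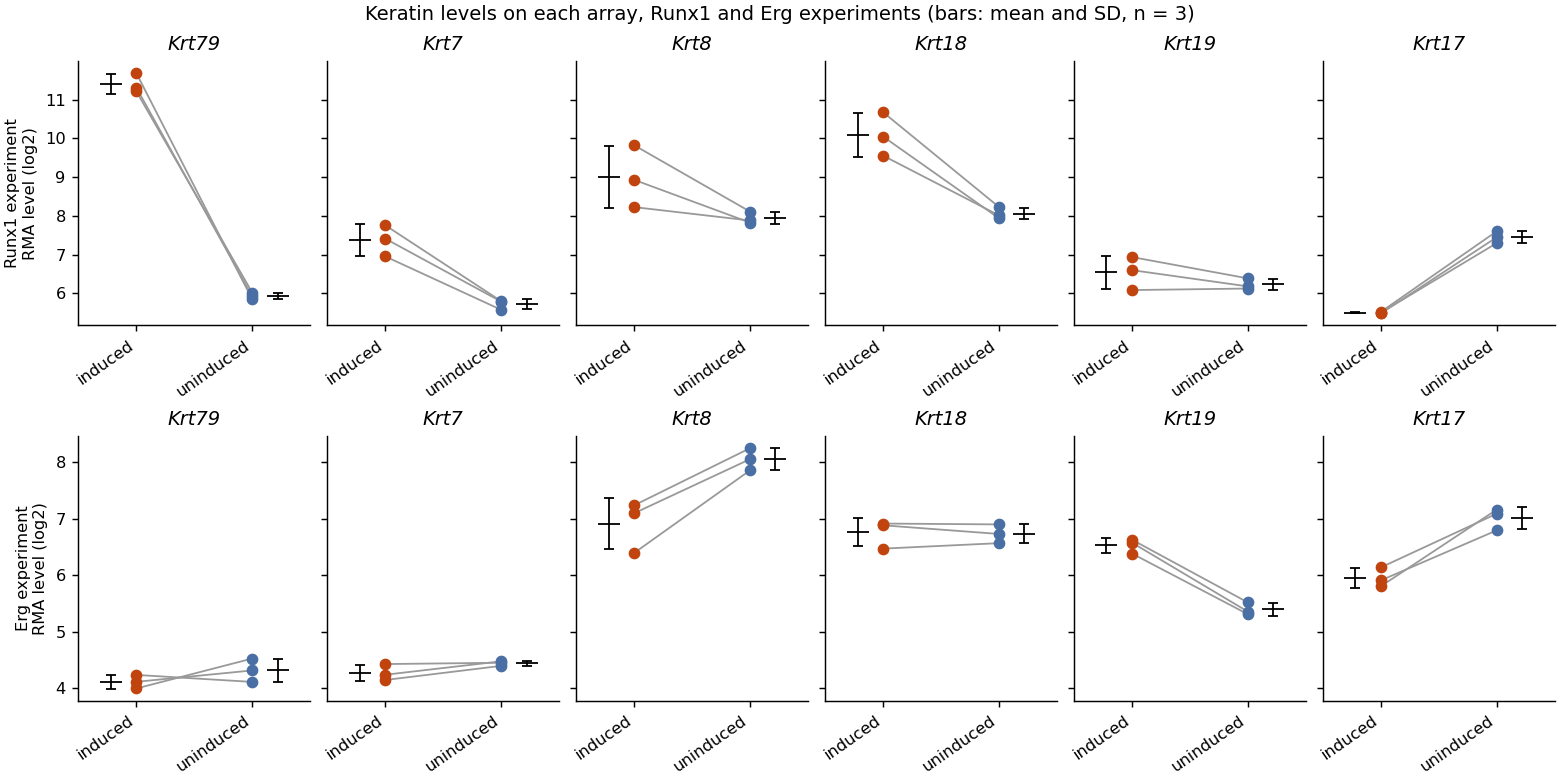
Log2 level of the 6 keratins in each array of the Runx1 and Erg experiments, induced clones left of uninduced clones. Points are arrays, lines join the 2 states of a replicate, and bars give the mean ± SD (n = 3). Krt79 stands at 11.21 to 11.69 in Runx1-induced clones and Krt17 at 5.48 to 5.52, below all uninduced clones.

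A probeset was called at an adjusted p under 0.05 in limma, fitted over all probesets of the array with the clone as a block. In the Runx1 experiment 5 of the 9 keratin probesets were called higher and 1 lower, beside 8.51% of all 22690 probesets called higher and 7.65% called lower. Since these contrasts chose the genes, nothing is read from the counts. The 3 arrays in a state limit the precision: without replicate 3, both Krt8 probesets lost the call.

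In the Erg experiment (24 h of Erg, a member of the ETS family known from endothelium) the pattern was another one. Krt8 stood at 7.10, 6.39 and 7.24 in induced clones, against 8.05, 7.85 and 8.25 in uninduced clones. Every induced clone lay below every uninduced one, by 1.14 on average (SE 0.11), and a second probeset gave -1.20. Krt17 was lower here too, at 5.80, 5.91 and 6.14 in induced clones and 7.16, 6.79 and 7.09 in uninduced clones (difference -1.06, SE 0.11), without overlap. Krt19 was higher, at 6.38, 6.58 and 6.63 in induced clones and 5.31, 5.36 and 5.52 in uninduced clones (difference 1.13, SE 0.08). Krt18 showed no shift of that size, with 6.88, 6.47 and 6.91 in induced clones against 6.73, 6.57 and 6.90 in uninduced clones (difference 0.02), and the groups overlapped. Krt7 and Krt79 differed by -0.17 and -0.20. Of the 9 probesets, 1 was called higher and 4 lower, beside 5.71% of all 45101 probesets called higher and 6.28% called lower.

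The 2 chains of the Krt8 and Krt18 pair thus differed in how far they shifted. The Krt8 difference minus the Krt18 difference, taken within each clone, averaged -1.17 in the Erg experiment (SD 0.18, n = 3) and -0.98 in the Runx1 experiment (SD 0.23). In the first, Krt8 was lower and Krt18 was level, and in the second both were higher, Krt18 by more. The next values were -0.76 for Sim2, -0.41 for Pdxk and -0.33 for Aire, and the highest was 0.19 for Dyrk1a. All 3 clones had a Krt8 difference below that of Krt18 in 9 of 20 experiments (these 5, Ripk4, RIKEN-1810007M14, Hunk and Ets2) and above it in 2. Probesets differ in how steeply they respond, so a gap between 2 genes on this scale is not a ratio of transcripts.

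**Figure D2:**
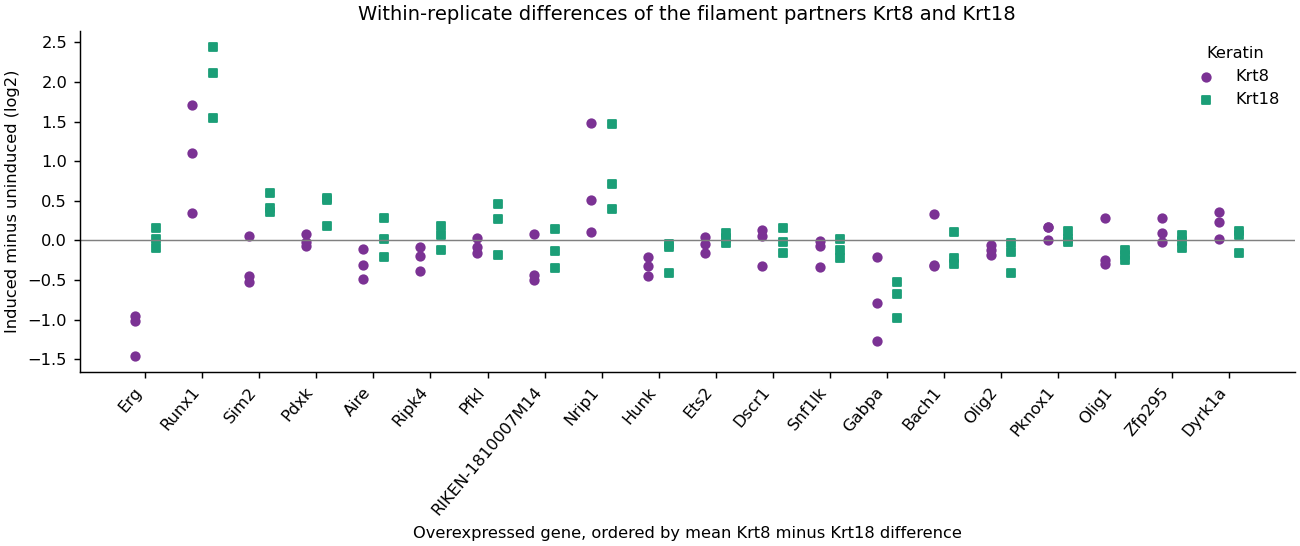
Induced minus uninduced log2 difference of Krt8 and Krt18 in each replicate of the 20 experiments, ordered by the mean of Krt8 minus Krt18. Each point is 1 clone. Erg (mean gap -1.17) and Runx1 (-0.98) lie at one end and Dyrk1a (0.19) at the other.

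Outside these 2 experiments, Krt19, the type I chain of ducts, was higher on average in 16 of 18 experiments and in all 3 clones in 12. The share of all probesets that did the same is not given, and these contrasts chose the gene, so nothing is read from these counts. The largest difference of Krt19 was that of Pdxk, a pyridoxal kinase: 7.55, 7.87 and 7.91 in induced clones and 5.92, 6.75 and 6.24 in uninduced clones (1.48, SE 0.12), with no overlap. For Ripk4, a kinase of epidermal differentiation, Krt19 had 7.96, 7.04 and 8.05 in induced clones and 6.92, 5.85 and 7.10 in uninduced clones. The groups overlapped because replicate 2 was low in both states, while the difference within clones was 1.06 (SE 0.08). In the Olig2 experiment, Krt19 stood at 7.18, 7.86 and 7.30 in induced clones and 6.58, 6.64 and 6.68 in uninduced clones (0.81, SE 0.12), with no overlap.

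Krt17 in the Olig2 experiment (Olig2 is a factor of motor neuron and oligodendrocyte precursors) had 8.27, 8.57 and 7.40 in induced clones, against 7.55, 7.44 and 6.63 in uninduced clones. It was higher within every clone, by 0.88 on average (SE 0.09), and the groups overlapped through the low replicate 3. Krt7 in the Sim2 experiment (Sim2, a bHLH-PAS factor) had 6.06, 6.25 and 6.99 in induced clones and 5.00, 5.29 and 6.20 in uninduced clones, a difference of 0.94 (SE 0.11) with overlap. The clone numbers of the Sim2 arrays are in doubt, since a supplementary table of the study lists the first 2 clones in opposite order in the 2 states. With these 2 clones crossed, a choice made after the values were seen, the Krt7 difference kept its mean with an SE of 0.14, limma called 0 probesets of the Sim2 experiment (412 with the numbers of the labels) with 4597 at an unadjusted p under 0.05, against 6692, and Krt8 stayed below Krt18 in all 3 clones. In these 4 experiments the called keratin probesets were Krt17 and Krt19 for Olig2, Krt7 for Sim2, and Krt19 for Pdxk and Ripk4. The shares of all probesets called higher were 0.825% for Olig2, 0.643% for Sim2, 0.231% for Pdxk and 0.0177% for Ripk4. Of these 5 keratin calls, 0 were kept without the clone as a block, and 0 without replicate 1. Krt7 in the Pdxk experiment was higher by 0.97 without a call, at 6.58, 6.87 and 7.03 in induced clones and 5.15, 6.85 and 5.59 in uninduced clones, where replicate 2 had nearly the same level in both states. The paper reports a mild leak of the Pdxk transgene with tetracycline present, so these uninduced clones may not be free of it. Its part in the Krt7 and Krt19 levels was not tested.

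Some markers of the trophectoderm, the first epithelium of the embryo, were higher beside these keratins in the Olig2 experiment, and their part in the keratin differences was not tested. Of 22 probesets for its 11 markers 8 were called higher, for Ascl2 (by up to 1.38, adjusted p = 0.00368), Tfap2c (0.82, adjusted p = 0.00386) and Gata2 (0.59, adjusted p = 0.0337), while Gata3 lay under the lower quartile of the array. The other markers had no call, and the median difference of the 22 probesets was 0.13. The summed level of the 11 markers stood at 10.85 to 10.88 in Olig2-induced clones and 10.11 to 10.25 in uninduced clones. It mostly follows the brightest of them, Tfap2c, with a mean of 10.01 in induced clones and 9.19 in uninduced clones. The ES cell markers summed to 15.90 to 15.91 in induced clones and 15.88 to 15.93 in uninduced clones, and the primitive endoderm markers to 10.33 to 10.45 in induced clones and 10.57 to 10.71 in uninduced clones. In the Pdxk experiment 3 of the 22 trophectoderm probesets were called higher, all for Ascl2, with a sum of 10.42 to 10.66 in induced clones and 10.04 to 10.34 in uninduced clones. None was called for Sim2 (10.28 to 10.35 in induced clones, 9.89 to 10.04 in uninduced clones) or Ripk4 (10.30 to 10.53 in induced clones, 10.09 to 10.44 in uninduced clones). Of the 22, 7 and 6 had an unadjusted p under 0.05, beside 6692 of 45100 probesets for Sim2 and 3332 of 45101 for Ripk4.

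The Nrip1 and Gabpa experiments had wide differences and no call. For Nrip1, a nuclear receptor corepressor, Krt17 had 7.92, 8.46 and 8.89 in induced clones and 7.36, 5.98 and 7.54 in uninduced clones. Krt19 had 7.80, 8.91 and 7.60 in induced clones and 6.90, 6.12 and 6.92 in uninduced clones. Both differed by 1.46 with no overlap, Krt18 by 0.86 and the brightest Krt8 probeset by 0.70, and the low uninduced array of replicate 2 gave the largest difference in each. None of the 9 probesets was called by limma (0.113% of all probesets were called higher). An unadjusted p under 0.05 was reached by 8, beside 4439 of all 45101 probesets. The methods' t-test called 0, and 1 fit over all arrays of the larger type called 7. The ES cell markers had a lower sum in the same experiment, and their part was not tested: their sum was 15.29 to 15.61 in Nrip1-induced clones and 15.64 to 15.75 in uninduced clones. Their median difference was -0.21, with 0 of 23 probesets called and 12 at an unadjusted p under 0.05, beside the same 4439 of all probesets. Of the 22 trophectoderm probesets 2 were called higher, both for Ascl2, with a sum of 9.48 to 9.73 in induced clones and 9.24 to 9.67 in uninduced clones. In the Gabpa experiment (Gabpa is an ETS factor of housekeeping genes) all 9 probesets were lower on average. Krt18 had 6.84, 6.36 and 6.48 in induced clones, against 7.51, 6.88 and 7.46 in uninduced clones (-0.72). Krt8 had 6.62, 6.78 and 6.78 in induced clones and 7.89, 6.99 and 7.57 in uninduced clones (-0.75), and neither probeset overlapped between the states. Krt7 and Krt79 were lower by 0.55 and 0.52. Of these 9 probesets limma called 0, beside 0% of all probesets called lower. An unadjusted p under 0.05 was found for 7, beside 5196 of all 45101 probesets. The pairing of the Gabpa arrays was weak in the data (r of 0.05, -0.18 and 0.17 with state means removed), so its differences within clones carry that limit. The methods' t-test called 0, 1 fit over all arrays of the larger type called 5, and 5 were called without replicate 2. The shares of all probesets called by the 1 fit or without a replicate are not given, so nothing is read from these counts. Its ES cell markers summed to 15.75 to 15.76 in induced clones and 15.78 to 15.80 in uninduced clones.

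The remaining 12 experiments gave 108 differences for the 9 probesets. They ran between -0.41 (Krt8, Hunk) and 0.48 (Krt19, Hunk), and 96 of them were under 0.25 in size. None was called by limma, beside 0.328% of all probesets in either direction. An unadjusted p under 0.05 was found for 15, where between 1011 (Dscr1) and 8246 (Aire) of all 45101 probesets had one in each experiment. Neither the methods' t-test nor 1 fit over all arrays of the larger type called any, while 2 were called without replicate 2. Over the 20 experiments 16 of 180 differences were called, 6 of them in the Runx1 experiment and 5 in the Erg experiment. These contrasts chose the genes, and the shares of all probesets are those given above, so nothing is read from the total. Krt79 was called in the Runx1 experiment only, and over the other 19 experiments its differences ran between -0.52 (Gabpa) and 0.20.

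**Figure D3:**
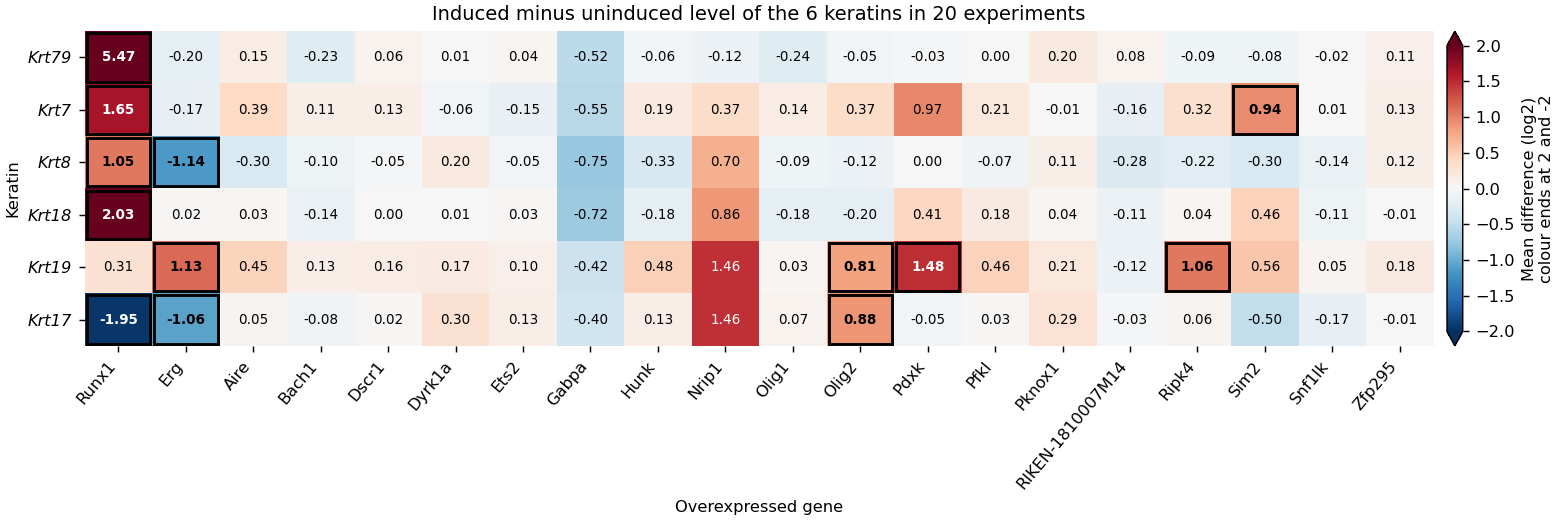
Mean induced minus uninduced log2 difference (colour and number, n = 3 clones) of the 6 keratins, 1 probeset each, in the 20 experiments. The colour ends at 2 in either direction and boxes mark called probesets. Krt79 reaches 5.47 in the Runx1 experiment.

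The keratin genes lie in 2 clusters of the mouse genome, the type II genes together with Krt18 on chromosome 15 and the other type I genes on chromosome 11, with 27 genes on each in RefSeq. On chromosome 15, Krt79, Krt78, Krt8 and Krt18 are the last in order, and Krt80 and Krt7 the first. In the Runx1 experiment the genes that differed stood at these 2 ends, where Krt78 has no probeset of its own on the smaller array and was not measured. The genes measured between Krt7 and Krt79, from Krt88 to Krt4, had no call, and Krt4, the neighbour of Krt79, differed by -0.03. Krt80 at the other end rose by 0.40 (SE 0.09; limma adjusted p = 0.0398), a call lost without replicate 1 or 3. On chromosome 11, Krt13 fell by 0.41 (adjusted p = 0.0217) and Krt14, a basal epidermal chain, fell by 0.26 and 0.27 on its 2 called probesets (adjusted p = 0.0382 for each), one of which is of a type that can match related transcripts. These are low levels: in uninduced clones Krt13 stood at 4.45 and Krt14 at 4.84 and 4.53, under the lower quartile of the array (4.97 to 5.07). The Krt13 call was lost without replicate 2 and the Krt14 calls without any 1 replicate.

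Among all other keratins, 42 genes, the Runx1 experiment had 1 probeset called higher and 3 lower of 40 (34 genes), beside the 8.51% and 7.65% of all probesets, with a median difference of -0.06 beside -0.03 for all probesets. In the Erg experiment 2 of 52 probesets rose and 3 fell, shares no larger than the 5.71% and 6.28% of all probesets (median 0.01, all probesets -0.01). Krt20, a type I chain of gut and urothelium, rose to 4.80 in induced clones, against 3.92 in uninduced clones (0.89, SE 0.08; adjusted p = 0.000497). Krt42, the neighbour of Krt17 and last of the chromosome 11 genes in order, fell by 0.92 (SE 0.09; adjusted p = 0.000872) and by 0.39 on its 2 probesets, and Krt13 fell by 0.69 (adjusted p = 0.049). Krt222 rose by 0.38 (adjusted p = 0.0175) to 3.11 in induced clones, under the lower quartile of the array (3.62 to 3.63). The calls of Krt13 and of the second Krt42 probeset were lost without replicate 1 or 3, that of Krt222 without any 1 replicate. In the Olig2 experiment Krt42 rose by 0.55 (SE 0.07; adjusted p = 0.0149), where Krt17 was higher too. Krt12 in the Aire experiment rose by 0.33 to 3.91 in induced clones, against 3.58 in uninduced clones, a low level (adjusted p = 0.0488, with 2.45% of all probesets called higher).

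**Figure D4:**
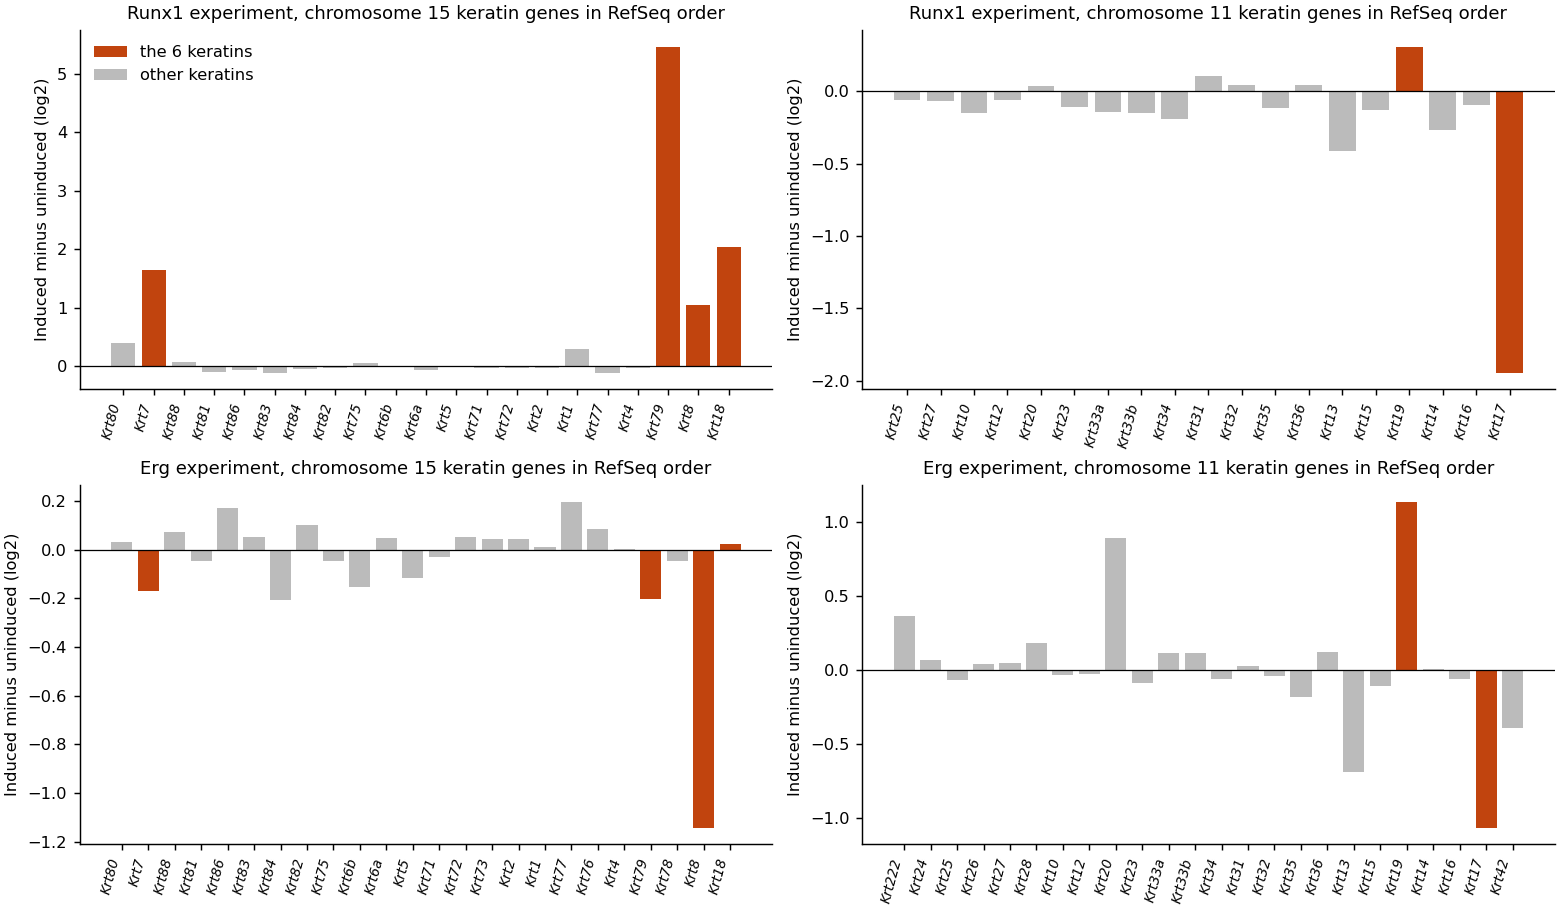
Induced minus uninduced log2 difference of keratin genes in RefSeq order along chromosomes 15 and 11, in the Runx1 and Erg experiments (1 probeset per gene, bars are means of 3 clones). On chromosome 15 the Runx1 bars stand out at Krt79 (5.47), Krt18 (2.03), Krt7 (1.65) and Krt8 (1.05).

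Keratin filaments are held at the cell surface by desmosomes and cross-linked by plakins. Of the probesets for 18 such anchoring genes, 11 of 34 rose and 2 fell in the Runx1 experiment, beside 8.51% and 7.65% of all probesets (median 0.18, all probesets -0.03). Dsp, the desmoplakin that ties keratin to desmosomes, rose to 10.03 in induced clones, against 7.90 in uninduced clones (2.13, SE 0.06; adjusted p = 0.000142). Dsc2, a desmosomal cadherin, rose by 1.81 (adjusted p = 0.000265), Pkp2 (plakophilin) by 1.01 (0.0116), Eppk1 (epiplakin) by 0.85 (0.000988) and Plec (plectin) by 0.74 (0.0132). Dst (dystonin) fell by 0.65 (adjusted p = 0.0024). These are each gene's widest called probeset, and the size depends on it: the other called probesets gave 0.44 for Dsc2, 0.83 and 0.41 for Pkp2, and 2.05 and 0.80 for Dsp.

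In the Erg experiment the same list had 7 of 37 probesets higher and 9 lower, beside 5.71% and 6.28% of all probesets (median -0.08, all probesets -0.01). Dsp fell to 5.15 in induced clones, against 7.07 in uninduced clones (-1.92, SE 0.15; adjusted p = 0.000334). Fam83h, which binds keratin filaments, fell by 1.43 (adjusted p = 0.000493) and Eppk1 by 0.80 (0.000917). Plec rose by 1.00 (adjusted p = 0.00236), Jup (plakoglobin) by 0.96 (0.0268) and Perp, a desmosomal membrane protein, by 0.92 (0.00143). On the 2 probesets called in both, Dsp, like Krt8, was therefore higher in the Runx1 experiment and lower in the Erg experiment, in 3 of 3 clones each.

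The other intermediate filament genes had 5 probesets higher and 5 lower of 31 in the Runx1 experiment (beside 8.51% and 7.65% of all probesets, with a median of 0.02 against -0.03), and 7 higher and 0 lower of 36 in the Erg experiment (beside 5.71% and 6.28%, with a median of 0.10 against -0.01). Vim (vimentin, the mesenchymal filament) rose in both, by 0.50 with Runx1 (adjusted p = 0.0154) and by 0.75 with Erg (0.00427). Lmna, a nuclear lamin, rose by 0.95 with Runx1 (adjusted p = 0.00553). Prph (peripherin) fell by 0.80 with Runx1 (0.0431) and rose by 0.59 with Erg (0.0133), and Ina (internexin) fell by 0.50 (0.00625) and rose by 0.60 (0.0123). The Prph calls of both experiments, and that of Ina with Erg, were lost without replicate 3. Nes (nestin) rose by 0.47 (0.0218) with Runx1 and 0.35 (0.0367) with Erg, each call lost without replicate 1 or 3, and Lmnb1 fell by 0.29 with Runx1 (0.0455), a call lost without any 1 replicate.

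Among 20 transcription factors of epithelia, the Runx1 experiment had 6 probesets higher and 6 lower of 37, beside 8.51% and 7.65% of all probesets (median -0.10, all probesets -0.03). Grhl2, a factor of epithelial junctions, fell by 1.44 (SE 0.12; adjusted p = 0.00165), or 0.41 on a second called probeset, and Klf4 by 0.82 (0.00174), and Junb fell by 0.53 (0.00461). Fosl1, an AP-1 subunit, rose by 1.00 (adjusted p = 0.00571), Tfap2c by 0.88 (0.000868) and Elf3 by 0.49 (0.00612). The Erg experiment had 3 higher and 6 lower of 42, beside 5.71% and 6.28% (median -0.02, all probesets -0.01). Gata2 rose by 1.49 (SE 0.09; adjusted p = 9.42e-05) and Junb by 0.47 (0.0167), while Grhl2 fell by 0.82 (0.00264), Klf5 by 0.59 (0.0113), Tfap2c by 0.55 (0.0435) and Elf3 by 0.43 (0.014). Grhl2 fell in both experiments. The Erg calls of Junb were lost without replicate 1 or 2, those of Klf5 and Elf3 without replicate 3, and those of Tfap2c without replicate 1 or 3.

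Markers of other cell types moved as well, and their part in the keratin differences was not tested. In these bulk samples, more cells of a type and more RNA per cell cannot be told apart. The marker counts stand beside 8.51% of all probesets called higher and 7.65% lower with Runx1, and 5.71% higher and 6.28% lower with Erg. Among 12 ES cell markers, 1 probeset rose and 8 fell of 17 with Runx1, and 1 rose and 6 fell of 23 with Erg. Nanog fell by 1.13 with Erg (adjusted p = 0.00039) and by 0.62 with Runx1 (0.0105). The summed level of the list stood at 16.05 to 16.07 in Runx1-induced clones and 16.19 to 16.22 in uninduced clones, and at 15.54 to 15.58 in Erg-induced clones and 15.79 to 15.86 in uninduced clones.

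Trophectoderm expresses Krt7, Krt8, Krt18 and Krt19. Of its 11 markers on the array, the summed level was 11.24 to 11.44 in Runx1-induced clones and 10.59 to 10.82 in uninduced clones, and 5 of 22 probesets rose, all for Eomes and Tfap2c. Eomes rose by 1.74 (adjusted p = 0.000311), while Elf5, Gata3 and Plac1 lay under the lower quartile. With Erg the sum was 9.78 to 10.03 in induced clones and 9.46 to 9.65 in uninduced clones, 5 probesets rose and 2 fell of 22, Ascl2 rose by 1.17 (adjusted p = 0.000326) and Gata3 lay under the lower quartile. Primitive endoderm markers had 0 probesets higher and 3 lower of 27 with Runx1 (sum 11.12 to 11.40 in induced clones, 11.36 to 11.53 in uninduced clones, with Afp, Foxa2 and Pdgfra under the lower quartile). They had 4 higher and 1 lower of 33 with Erg (10.89 to 11.17 in induced clones, 10.57 to 10.75 in uninduced clones), where Col4a1 rose by 1.57 (adjusted p = 0.000135) and Lama1 fell by 1.49 (0.000136).

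Krt17 and Krt79 are known from the appendages of stratified epidermis. The 11 epidermis markers summed to 10.62 to 11.38 in Runx1-induced clones and 11.02 to 11.51 in uninduced clones, with 0 probesets higher and 3 lower of 17. Trp63, Krt1, Krt14, Ivl and Col17a1 lay under the lower quartile of the probesets. With Erg the sum was 10.09 to 10.85 in induced clones and 9.64 to 10.07 in uninduced clones, and 2 of 19 probesets rose, Perp and Sfn. Fibroblast markers had 0 higher and 1 lower of 14 with Runx1 (8.54 to 8.74 in induced clones, 8.66 to 8.86 in uninduced clones, 6 of 10 markers under the lower quartile). With Erg 2 of 16 rose (9.72 to 10.20 in induced clones, 8.23 to 8.86 in uninduced clones, 4 of 10 under the lower quartile), and Thy1 rose by 2.11 (adjusted p = 6.54e-05).

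The uninduced clones show how far keratins vary without induction. Their levels are part of the differences that chose the genes, so the levels and the tests on them below are not independent of that choice. Over the 19 experiments on the larger array the mean uninduced level lay between 6.52 (Dyrk1a) and 9.46 (Ets2) for Krt8, between 6.45 (Dyrk1a) and 8.65 (Ets2) for Krt18, between 6.37 (Ets2) and 7.65 (RIKEN-1810007M14) for Krt17 and between 5.20 (Dyrk1a) and 7.66 (RIKEN-1810007M14) for Krt19. Krt7 lay between 4.04 (Pfkl) and 6.42 (Ripk4), and Krt79 between 3.90 (Pknox1) and 4.89 (Dscr1). The order of experiments is not read further, since each was normalized apart. Within experiments, the range of the 3 uninduced clones exceeded the mean difference in 18 of 20 experiments for Krt8, Krt17 and Krt18, in 17 for Krt79, 16 for Krt7 and 15 for Krt19. The difference is taken within clones, which removes the spread between them, and it was small in most experiments. The share of all probesets with a wider range than difference is not given, so nothing is read from these counts.

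The Ets2 experiment holds the widest range. Krt18 stood at 11.29, 7.63 and 7.13 in its induced clones and at 11.33, 7.53 and 7.09 in its uninduced clones. Krt8 had 11.74, 8.30 and 8.18 in induced clones and 11.90, 8.26 and 8.22 in uninduced clones. In both genes replicate 1 was over 3 log2 units above the others in either state, while the mean differences between the states were 0.03 for Krt18 and -0.05 for Krt8. Krt19 showed the same clone, at 8.46, 5.73 and 5.63 in induced clones and 9.01, 5.44 and 5.06 in uninduced clones, as did Krt7, at 7.36, 4.89 and 5.04 in induced clones and 7.69, 5.18 and 4.85 in uninduced clones. Krt17 and Krt79 showed no such excess in replicate 1. The summed primitive endoderm markers of this experiment were 14.45, 10.78 and 10.63 in induced clones and 14.29, 10.62 and 10.53 in uninduced clones. Other clones differed in both states too. Krt8 had 9.38, 6.49 and 8.14 in Olig1-induced clones and 9.63, 6.20 and 8.44 in uninduced clones, and 7.89, 6.17 and 5.74 in Pfkl-induced clones and 7.98, 6.33 and 5.70 in uninduced clones.

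Across the 57 uninduced arrays of the larger type, each level taken as its deviation from the mean of its experiment, Krt8 and Krt18 varied together (Pearson r = 0.93, Spearman rho = 0.89). In a two-sided permutation test within experiments, either p was 1e-05, the smallest that 100000 draws can give, or 0.00015 adjusted over the 15 pairs of the 6 genes. Without the 2 arrays farthest from the median of Krt8, r was 0.90, and without the Ets2 arrays (54 arrays, a choice made after the values were seen) it was 0.91. Krt7 and Krt19 followed with r = 0.79 and rho = 0.63 (permutation p = 0.00026 and 0.00025, adjusted 0.00195 and 0.00187), which became 0.69 without the 2 farthest arrays and 0.59 without the Ets2 arrays (adjusted p = 0.00592). In all, 7 of 15 pairs passed by r and 8 by rho, and without the Ets2 arrays 4 and 5 did. Krt18 and Krt19 were among those that rested on the Ets2 arrays by r: r = 0.73 (permutation p = 0.00333, adjusted 0.0166), and 0.39 without them (adjusted p = 0.0621). Krt79 passed with none of the others, with r between -0.13 and 0.13. It was dim on these arrays, with a mean level of 4.35 over both states and a median SD of 0.12 among uninduced clones. A relation with the other keratins could therefore hardly be seen.

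The primitive endoderm markers varied with Krt8 in the same arrays (r = 0.72, rho = 0.57; permutation p = 9e-05 and 0.00037, or 0.0027 and 0.0111 adjusted over 30 relations of the 6 keratins with 5 marker lists). Without the 2 farthest arrays r was 0.68, and without the Ets2 arrays r was 0.54 (adjusted p = 0.0114) and rho 0.49 (adjusted p = 0.0558). For Krt18, r was 0.71 (permutation p = 0.00376, adjusted 0.0564), and 0.45 without the Ets2 arrays (adjusted p = 0.21). These relations with marker lists were added after the values were seen.

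**Figure D5:**
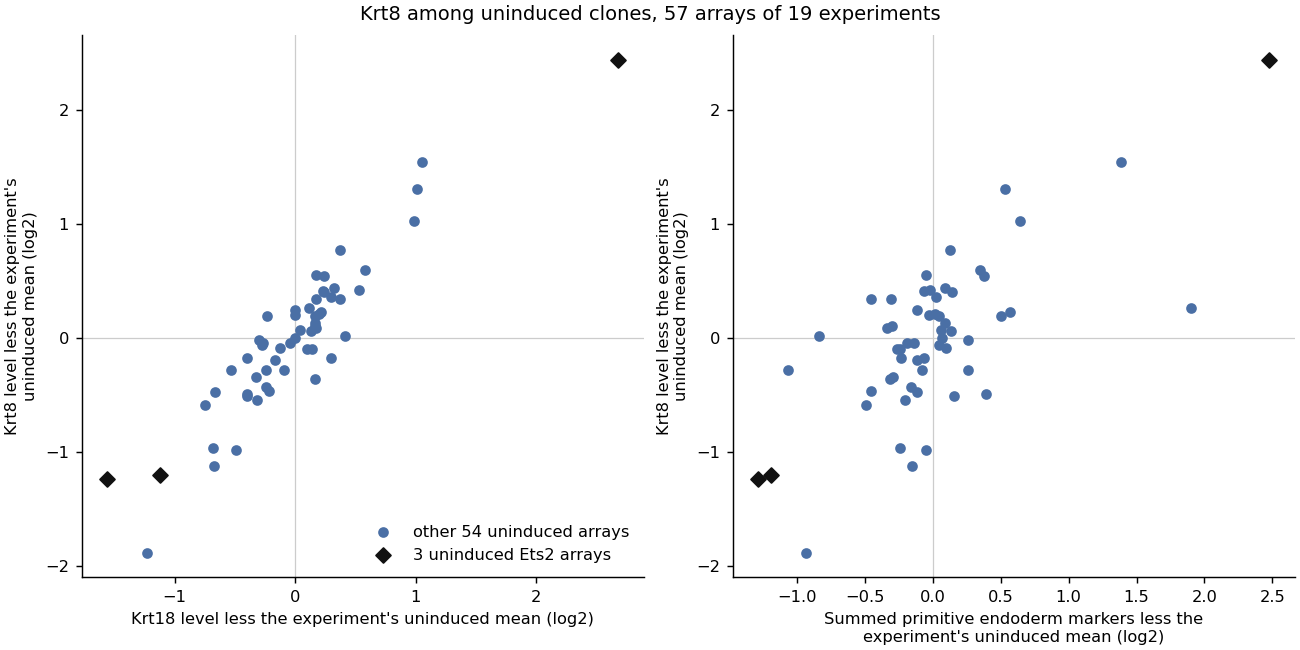
Uninduced log2 levels as deviations from the mean of the experiment, in 57 arrays of the larger type (points, with the 3 Ets2 arrays as diamonds): Krt8 against Krt18, and Krt8 against the summed level of 12 primitive endoderm markers. Krt8 and Krt18 lie along a line (r = 0.93, and 0.91 without the Ets2 arrays).

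The induced minus uninduced differences varied together less than the uninduced levels did for Krt8 and Krt18. Over the 57 differences within clones of the same 19 experiments, r was 0.60 for that pair, 0.70 for Krt8 with Krt17 and 0.63 for Krt18 with Krt19, given as a description, since the points share clones and experiments. Over the same 57 differences, the genes most like each keratin by Pearson r were the following, 1 probeset a gene. For Krt8 they were Gm9564 (0.77), Mcat (0.77) and Fgf15 (0.76), and for Krt18 Card19 (0.79), Csrp1 (0.78) and Ntmt1 (0.78). For Krt7 they were Cela1 (0.78), Laptm4b (0.77) and Ifi30 (0.76), and for Krt19 Fam3c (0.76), Irf1 (0.74) and Capg (0.74). Krt17 had Tnfsf9 (0.77), Krt8 (0.76, on another probeset than that of the 0.70 above) and Sp5 (0.75). Krt79, dim on these arrays and with no wide difference outside the Runx1 experiment, reached only 0.57 with Pus7l and 0.50 with Gsta2 and with Chrac1.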

How the data were processed

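Expression was measured on Affymetrix arrays, 3 clones in 2 states for each of 20 genes. The deposited log2 values come from the authors' RMA processing in affy (versions not given in the sources used here), run on each experiment apart, so levels were compared within experiments. Probesets were named through the GEO platform annotation. On the larger array 34958 of 45101 name 1 gene and 932 name several, and on the smaller one 20393 and 691 of 22690 do. A Krt17 and Krt14 probeset was left out as shared. Per-sample columns left unused numbered 0.

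Induced minus uninduced was fitted by limma 3.58.1 (R 4.3.3, lmFit and eBayes) in each experiment, with the replicate number as a block. P-values were adjusted by Benjamini-Hochberg over the whole array and called under 0.05. The study profiled each clone before and after induction, and the pairing was checked in the data: with state means removed, the 2 arrays of a number correlated above 0.1 in 54 of 60 pairs (all 3 pairs of 15 experiments, median r 0.376). The rest had r of 0.046 and -0.18 in Gabpa, 0.095 in Bach1, 0.081 in RIKEN-1810007M14, 0.057 in Hunk and -0.026 in Pfkl. In these experiments the block rests on the labels more than on the data. The Sim2 clones may be numbered in another order in the 2 states, so they were also fitted crossed. The limma p-values rest on the spread of the differences within clones, as eBayes moderates it, and not on the spread of levels between clones. The script was tested on simulated data. The self-made lists name at most 6 genes past the threshold in the Runx1 or Erg experiment, those of largest change, and every other keratin past it. The 3 genes most like a keratin are named from the 57 differences. Nanog with Runx1, Sfn and the Ets2 markers were named after their values were seen. A summed level is the log2 of the summed linear intensities, so the brightest genes weigh most. Permutations numbered 100000. The 6 keratins and all lists were chosen with earlier results of these data known. Alternatives were no block, a mean-variance trend with robust variances, a second quantile normalization, leaving out dim probesets, the t-test that the study's methods name, a stricter threshold, 1 fit over all arrays of the larger type and leaving out each replicate. That t-test was the ordinary unpaired one, and the Bayesian t-test (Cyber-t) that the study's results name was not run. The 3 arrays in a state limit the precision.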

Additional observations from a re-analysis of the deposited data

Results flagged for a closer look

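Several probesets were called in 2 experiments in opposite directions, with all 3 clones moving that way in each. The difference between experiments is given, and it was not tested. Runx1 was profiled on another array type than Erg and Olig2. Between Erg and Runx1, the Krt8 probesets differed by -2.20 (the brightest, -1.14 with Erg and 1.05 with Runx1) and -2.34 (-1.20 with Erg and 1.14 with Runx1). Dsp differed by -3.44 and -4.05 on 2 of its probesets (-1.39 and -1.92 with Erg, 2.05 and 2.13 with Runx1), and Eppk1 by -1.66. Another Dsp probeset was called with Runx1 (0.80) and not with Erg. The factors Tfap2c and Elf3 differed by -1.34 and -1.13 (2 probesets of Tfap2c) and by -0.92. In the other direction, Prph differed by 1.39, Ina by 1.02 and 1.04 on 2 probesets, Sfn by 1.10 and Junb by 1.00. Krt17 differed by -1.94 between Erg (-1.06) and Olig2 (0.88), and by 2.82 between Olig2 (0.88) and Runx1 (-1.95). Krt42 differed by -1.47 between Erg (-0.92) and Olig2 (0.55).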

How the results depend on the processing

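Under a second quantile normalization the 180 keratin differences moved by less than 1 SD of their 3 clones, and no called one changed sign. The deposited values had been normalized in this way once already, within RMA, so a second round could move little and nothing is read from it. Without the replicate block the 16 keratin calls of 20 experiments became 9, the 10 of the 19 experiments on the larger array 5, the 10 for other intermediate filaments with Runx1 6 and the 9 for regulators with Erg 5. The block changed no other keratin or list count by over 1.5 times among those with Runx1 or Erg, cell type markers aside. Of the 16 calls 9 were kept without the block, 11 at an adjusted p under 0.01, 4 by the methods' t-test (unpaired), and 11, 15 and 12 without replicate 1, 2 and 3. Crossing the first 2 Sim2 clones, added after the data were seen, left 15 of 16 and 9 of 10.

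One fit over all arrays of the larger type called 24 instead of 10, and kept 9 of the 10. The shares of all probesets called by this fit or without a replicate are not given, so these counts are not read further. The ordinary t-test of the methods is not the Bayesian t-test (Cyber-t) that the study's results name, which was not run. The methods' t-test called 4 in 20 experiments, 1 in 19, 3 with Runx1 and 1 with Erg. For Runx1 it called 13 of the 53 list probesets, 0 other keratins, 5 anchoring, 0 intermediate filament and 3 regulator probesets, and for Erg 0 of 55 and 0 in each list. An adjusted p under 0.01 left 25 of 53 with Runx1 (0 other keratins, 8 anchoring, 2 intermediate filament) and 30 of 55 with Erg (2 other keratins, 10 anchoring, 3 intermediate filament, 3 regulators). For other keratins, a mean-variance trend with robust variances left 2 of 4 with Runx1, and leaving out dim probesets 1 of 4 with Runx1 and 3 of 5 with Erg.

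Leaving out 1 replicate gave 11 to 26 keratin calls over 20 experiments, 5 to 18 over 19, 4 to 8 with Runx1 and 5 with Erg. The lists had 36 to 44 calls with Runx1 (other keratins 1, anchoring 10 to 12, intermediate filaments 6 to 7, regulators 9 to 12) and 33 to 53 with Erg (other keratins 2 to 4, anchoring 11 to 16, intermediate filaments 2 to 8, regulators 4 to 8). Of uninduced pairs 7 passed, 4 without the Ets2 arrays (added after the data were seen) and 2 to 4 without 1 replicate, with r for Krt8 and Krt18 between 0.84 and 0.96. Without replicate 1, which holds the Ets2 clone that stands apart, r turned to -0.115 for Krt8 with Krt19 and -0.036 for Krt18 with Krt19 (0.83 and 0.90 without replicate 2).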
